A study of Mus musculus with 9 samples.

Results

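The enzymes described here make, interconvert or break down sphingolipids, and they were measured in mouse ovarian surface epithelial (MOSE) cells at 3 stages of spontaneous transformation in culture. The members are 10 genes chosen by name for their place in the pathway, of 17941 genes named by the array: Sptlc2, Cers2, Degs1, Sgms1, Smpd1, Asah1, Sphk1, Sphk2, Sgpl1 and Ugcg. They were chosen with earlier results of these data known. On the array they have 23 probe sets of 45101, and each of the 23 names 1 of the members alone. Of these, 16 probe sets of 8 genes reached a signal over 500 on at least 1 array and were tested. The other 7, among them both probe sets of Sphk1 and both of Sphk2, stayed under 500 on every array.

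Sphingolipids are membrane lipids built on a long-chain base. Serine palmitoyltransferase starts their synthesis at the endoplasmic reticulum, ceramide synthases and a desaturase carry it on to ceramide, and ceramide then becomes sphingomyelin or glucosylceramide, the base of the gangliosides. Sphingomyelinases and ceramidases run the route backwards to sphingosine, which sphingosine kinases turn into sphingosine 1-phosphate, and a lyase removes that product for good. In many cell types ceramide is known as a signal for growth arrest and death and sphingosine 1-phosphate as a signal for survival and migration, so the balance of these enzymes is much studied in cancers, ovarian cancer included.

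MOSE cells come from C57BL6 mice. The MOSE-E cells (early passages, labelled non-malignant) were sampled at passages 13, 14 and 15, the MOSE-I cells (labelled intermediate) at passages 63, 71 and 73, and the MOSE-L cells (late passages, labelled malignant) at passages 136, 142 and 143, with 3 arrays per stage. The labels give no treatment and no engineered allele for any stage, and all 3 shared 1 medium with high glucose, serum, insulin, transferrin and selenite. The replicates of a stage are different passages of a heterogeneous cell model, and nothing in the sources used here says that they came from separate isolates. The p-values then measure only the spread between these samples, and passage number and malignancy cannot be told apart. Values are linear signals in arbitrary units, which the authors scaled to a trimmed mean of 500 on each array. Changes are differences of the mean log2(signal + 50) with their SE, a scale that understates the fold of dim probe sets, and each is tested by limma over all 13845 probe sets with a signal over 500 on some array. A probe set is called higher or lower where its Benjamini-Hochberg adjusted p is at most 0.05 and its change at least 1 in size. Median signals per array ran from 93.2 to 130.03. Of the marker genes of other cell types, none of the 5 measured for leukocytes, the 5 for endothelium, the 4 for granulosa cells or the 4 for theca and luteal cells passed 500 on any array, while 4 of 5 epithelial markers (whose stage means summed to 38690 for MOSE-E, 40150 for MOSE-I and 19030 for MOSE-L) and 5 of 6 of the surface epithelium and mesothelium did. The stage means of those of the surface epithelium and mesothelium summed to 51640 for MOSE-E, 34180 for MOSE-I and 45020 for MOSE-L. Both sums hide markers that moved in opposite directions. From MOSE-E to MOSE-L cells Upk1b (24912 to 12945), Bnc1, Msln and Lhx9 fell, and Upk3b (14381 to 22155) and Wt1 rose. Krt7 (3328, 294 and 129) and Krt19 fell at each step, Krt8 and Krt18 were highest in MOSE-I cells, and Epcam stayed under 500. Also over 500 were 2 of 4 fibroblast markers and, in MOSE-E cells, 1 of 4 oocyte markers, Ddx4. The fibroblast sums were 5315 for MOSE-E, 13320 for MOSE-I and 23350 for MOSE-L, but Dcn alone made 4978, 12238.5 and 22527.5 of these. Pdgfra was highest in MOSE-I cells (164, 924 and 672), and Lum and Thy1 stayed under 500. The part of these shifts in the values below was not tested, nor can fewer cells of a type be told apart from less RNA per cell.

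MOSE-L replicate 3 stood apart. Its log2 signals had correlations of 0.889 and 0.907 with MOSE-L replicates 1 and 2, which had 0.934 with each other. Its 3′ to 5′ signal ratio for the beta-actin control probe sets was 1.83, where the other 8 arrays lay between 1.12 and 1.45. For the Gapdh control probe sets its ratio was 0.727, close to the 0.735 to 0.81 of the other 8, so that control did not set it apart. It held the highest MOSE-L signal for 13 of the 16 tested member probe sets (81.2%), against 33.4% of all tested probe sets. Against the MOSE-E mean the median of the members lay 0.28 higher on MOSE-L replicate 1, 0.38 on replicate 2 and 0.77 on replicate 3. The main results are therefore also given without this array, and its part in them beyond that was not tested.

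Against MOSE-I cells every tested probe set of the enzymes had a positive change in MOSE-L cells, but most changes were under the minimum of 1 and missed the call. Between MOSE-L and MOSE-E cells 1 of 16 tested probe sets was called higher (Sptlc2) and 0 lower, where 7.63% of all tested probe sets were called higher and 7.37% lower. Between MOSE-I and MOSE-E cells 0 were called in either direction (1.97% of all were called higher and 3.76% lower), and between MOSE-L and MOSE-I cells 2 were called higher (Sptlc2 and Ugcg) and 0 lower, against 8.05% and 5.85% of all. The called shares of the members were thus near those of the whole array. By the adjusted p alone, with no minimum change, 3 of 16 passed between MOSE-L and MOSE-E (26.5% of all), 0 between MOSE-I and MOSE-E (9.75%) and 7 between MOSE-L and MOSE-I (27.2%). At an unadjusted p under 0.05, 2 of the 16 passed between MOSE-I and MOSE-E. The matching share of all tested probe sets was not computed, but it cannot be under the 9.75% that passed the adjusted p. The count is therefore no result about the members.

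The signs ran more to one side than the calls. The median change of the 16 was 0.53 between MOSE-L and MOSE-E, -0.27 between MOSE-I and MOSE-E and 0.80 between MOSE-L and MOSE-I cells, where the medians of all tested probe sets were 0.01, 0.01 and -0.01. The change was positive for 13, 2 and 16 of the 16. All 3 MOSE-L signals lay over all 3 MOSE-E signals for 9 probe sets (21.5% of all tested) and over all 3 MOSE-I signals for 11 (20.7%), and all 3 MOSE-I signals lay under the MOSE-E signals for 5 (19.8%). These counts are a description only. Of the 16, 6 passed the filter on MOSE-L arrays alone and so had to be higher there, and both called probe sets are among them. With no filter, over all 23 probe sets, the change was positive for 19 between MOSE-L and MOSE-E (53.2% of all probe sets), for 6 between MOSE-I and MOSE-E (45.3%) and for 22 between MOSE-L and MOSE-I (57.4%). With each array centred on its median instead, which moves MOSE-I against MOSE-E by 0.14 upward, 5 of 16 were positive between MOSE-I and MOSE-E (61.5% of all tested) and 15 between MOSE-L and MOSE-I (39.6%).

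**Figure D1:**
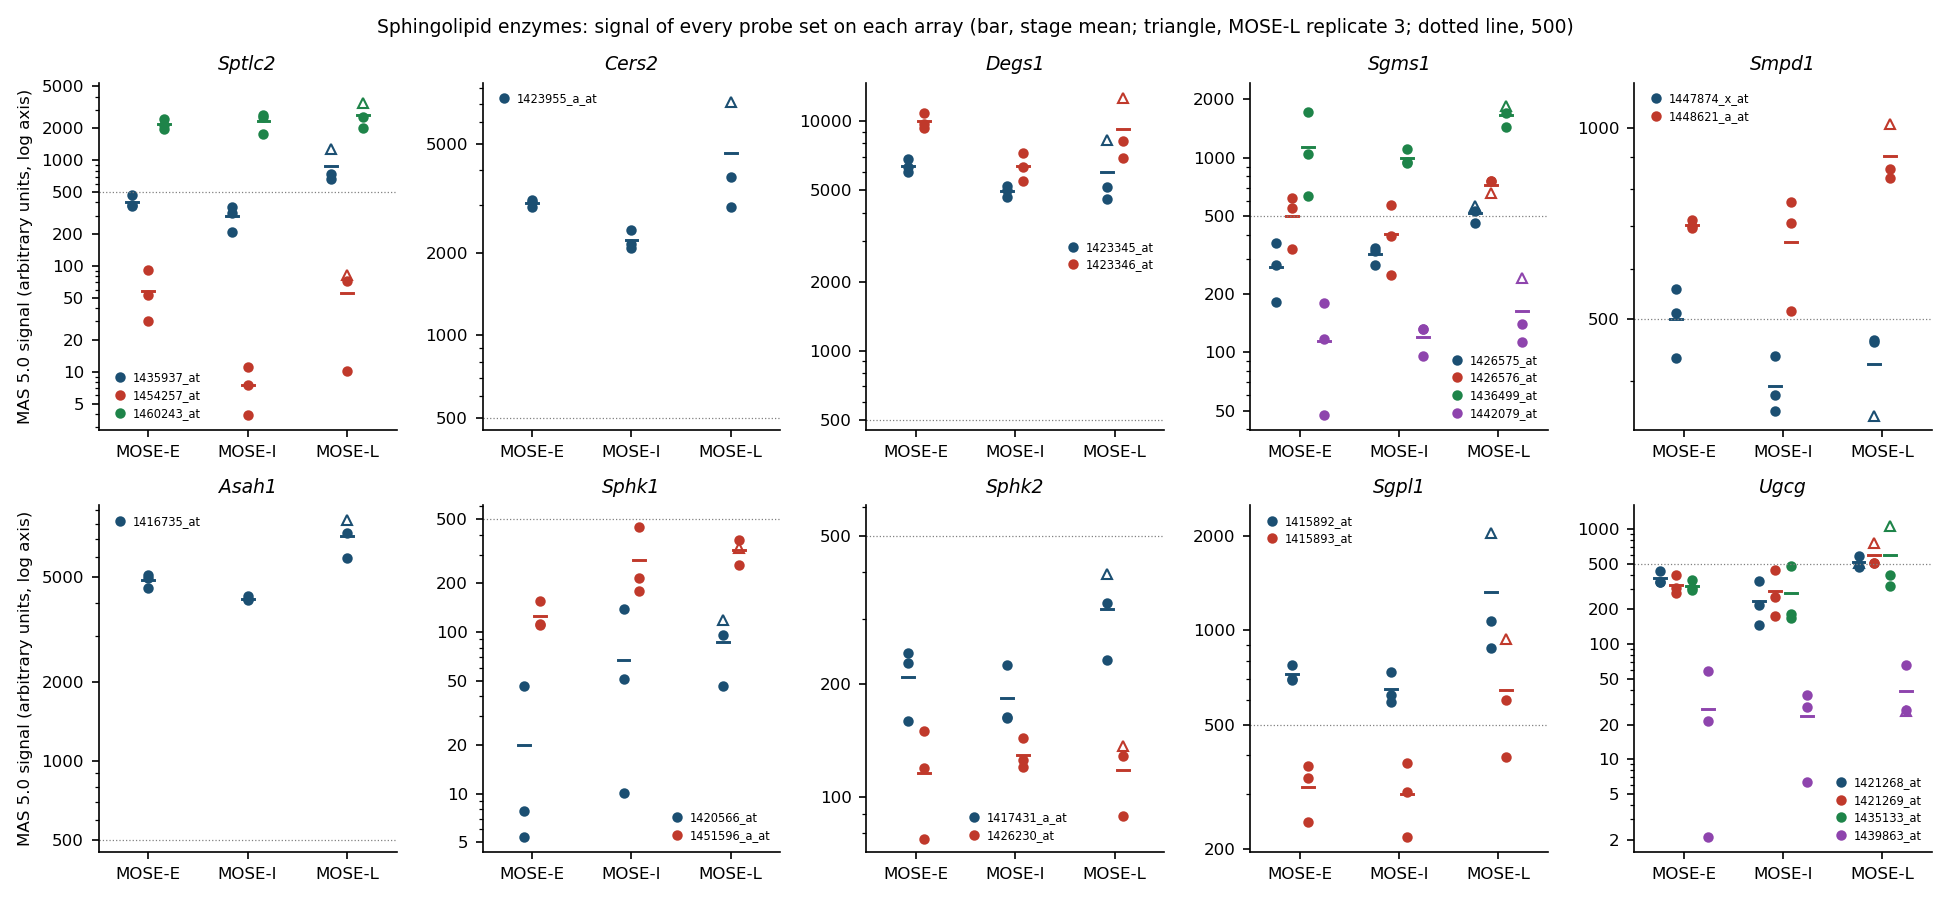
Signal of each of the 23 probe sets of the 10 enzymes on the 9 arrays (log axis, arbitrary units), by stage; points are arrays, bars are stage means, open triangles are MOSE-L replicate 3 and the dotted line is the filter at 500. The triangles are the top MOSE-L point for 13 of the 16 tested probe sets, and every Sphk1 and Sphk2 point lies under the line.

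Sptlc2 is the catalytic subunit of serine palmitoyltransferase, the first and rate-limiting enzyme of the pathway, and it had the largest rise among the tested members. Its probe set 1435937_at gave 377, 467 and 367 on the MOSE-E arrays, 208, 362 and 315 on the MOSE-I arrays and 662, 741 and 1269 on the MOSE-L arrays, so that every MOSE-L signal lay over every other signal and every MOSE-I signal under every MOSE-E signal. The mean was 891 ± 329.9 in MOSE-L and 404 ± 55.1 in MOSE-E cells (SD, n = 3 each), a 2.21-fold rise (log2 change 1.00 ± 0.27, adjusted p = 0.0213), and the rise over the 295 ± 78.6 of MOSE-I cells was 3.02-fold (log2 change 1.42 ± 0.27, adjusted p = 0.00601). The rise over MOSE-I was called without each array in turn (adjusted p between 0.0046 and 0.0226). The rise over MOSE-E was just at the limit of 1 and lost its call without MOSE-L replicate 3 (0.73, adjusted p = 0.0647), MOSE-E replicate 1 (0.96, 0.0547) or MOSE-E replicate 3 (0.95, 0.0798), with adjusted p between 0.016 and 0.0798 over the 9 arrays left out. A brighter Sptlc2 probe set, 1460243_at, did not follow it. That one gave 2148, 2452 and 1980.3 on the MOSE-E arrays, 1792, 2674 and 2559 on the MOSE-I arrays and 2039, 2565 and 3486 on the MOSE-L arrays, groups that overlap, with a change of 0.26 between MOSE-L and MOSE-E (adjusted p = 0.431) and 0.19 between MOSE-L and MOSE-I cells (adjusted p = 0.566). Without MOSE-L replicate 3 these were 0.06 and -0.01. The Sptlc2 rise therefore rests on 1 of its 2 tested probe sets, and that one passed the filter on MOSE-L arrays alone. Its remaining probe set, 1454257_at, reached no more than 91.8 and was not tested.

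The promoters of Sptlc2 and Ugcg are shown because these are the members called between MOSE-L and MOSE-I cells. They are the 250 bases before the start of each gene in RefSeq on GRCm38.p6, written 5′ to 3′ on the gene's strand, with GGGCGG (a GC box) and CCAAT in capitals on either strand, where they read as CCGCCC and ATTGG on the other strand:
Sptlc2 (chr12:87388356-87388605, minus strand): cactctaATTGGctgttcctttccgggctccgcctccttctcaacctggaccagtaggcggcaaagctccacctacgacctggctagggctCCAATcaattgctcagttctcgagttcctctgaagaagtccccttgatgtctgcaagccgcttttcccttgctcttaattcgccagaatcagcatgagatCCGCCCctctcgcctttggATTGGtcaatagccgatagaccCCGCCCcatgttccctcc
Ugcg (chr4:59189300-59189549, plus strand): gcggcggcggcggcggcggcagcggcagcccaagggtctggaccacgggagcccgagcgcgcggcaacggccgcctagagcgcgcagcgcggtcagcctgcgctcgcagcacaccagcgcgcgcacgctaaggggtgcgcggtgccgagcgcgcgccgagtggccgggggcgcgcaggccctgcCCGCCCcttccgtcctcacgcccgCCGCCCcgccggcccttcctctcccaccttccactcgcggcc

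The Sptlc2 window holds 2 GC boxes and 3 CCAAT motifs, and the Ugcg window 2 GC boxes and 0 CCAAT motifs, with 0 overlaps between motifs. Neither holds CACGTG (an E box). Of the 10 members 9 were in the table, with 18 such windows of 250 bases in all, some of which overlap, since several members have more than 1 start. Of the 18 windows 9 hold a GC box, 7 a CCAAT motif and 4 an E box, and of all 32851 windows of 250 bases 32.7% hold a GC box, 33.8% a CCAAT motif and 6.02% an E box. A match is only a match of letters, and factor binding was not measured.

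Ceramide itself is made by ceramide synthases, which attach a fatty acid to the long-chain base, and by the desaturase Degs1, which adds the double bond that turns dihydroceramide into ceramide. Cers2, the synthase for very-long-chain ceramides, gave 3060.3, 3108 and 2947 on the MOSE-E arrays, 2426, 2089 and 2156 on the MOSE-I arrays and 2942, 3789 and 7134 on the MOSE-L arrays. The MOSE-I signals lay under all others, and MOSE-L replicate 3 was far over the rest. Its mean was 4622 ± 2216 in MOSE-L and 2224 ± 178 in MOSE-I cells, 2.08-fold higher (log2 change 0.94 ± 0.28, adjusted p = 0.031), past the adjusted p but under the minimum change. Without MOSE-L replicate 3 this was 0.58 (adjusted p = 0.0475), with adjusted p between 0.00756 and 0.0857 over the 9 arrays left out. Between MOSE-L and MOSE-E cells the Cers2 change was 0.50 (adjusted p = 0.205), and 0.13 without that array.

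Both probe sets of Degs1 had small negative changes in MOSE-L against MOSE-E cells, neither past the test. Probe set 1423346_at gave 9362, 9725 and 10890.4 on the MOSE-E arrays, 5476, 7293 and 6303 on the MOSE-I arrays and 6929, 8204 and 12684 on the MOSE-L arrays, and every MOSE-I signal lay under every MOSE-E signal. The mean was 6357 ± 910.0 in MOSE-I and 9993 ± 798 in MOSE-E cells, a change of -0.66 ± 0.23 that missed the adjusted p at 0.088 (unadjusted p = 0.0159). The second probe set, 1423345_at, also gave lower signals on every MOSE-I array than on every MOSE-E array, with a smaller change of -0.36 (adjusted p = 0.295). Between MOSE-L and MOSE-E cells the changes were -0.15 and -0.14, and -0.40 and -0.39 without MOSE-L replicate 3, the highest array of all 9 for both.

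Sphingomyelin is made from ceramide by sphingomyelin synthases, of which Sgms1 works at the Golgi. Sgms1 had 3 tested probe sets, and all 3 had positive changes in MOSE-L against MOSE-E cells, of which 1 passed the adjusted p. That one, 1426575_at, was the dimmest of the 3 and passed the filter on MOSE-L arrays alone, so its highest signal had to be there. Probe set 1426575_at gave 182, 364 and 280.1 on the MOSE-E arrays, 281, 333 and 343 on the MOSE-I arrays and 458, 531 and 565 on the MOSE-L arrays, with every MOSE-L signal over all others. Its mean was 518 ± 54.3 in MOSE-L and 275 ± 91.4 in MOSE-E cells, 1.88-fold higher (log2 change 0.84 ± 0.25, adjusted p = 0.0309), past the adjusted p but under the minimum change. The others had changes of 0.52 (1426576_at, adjusted p = 0.197) and 0.63 (1436499_at, adjusted p = 0.13, with groups that overlap). Sgms1 rested less on MOSE-L replicate 3 than Cers2 or Sgpl1 did: without it the 3 changes were 0.78, 0.59 and 0.55, although the first then had an adjusted p of 0.0788 (between 0.0316 and 0.0877 over the 9 arrays left out). Against MOSE-I cells the 3 changes were 0.62, 0.83 and 0.70, with adjusted p of 0.0812, 0.0536 and 0.0917, and 0.56, 0.89 and 0.62 without MOSE-L replicate 3. The remaining Sgms1 probe set, 1442079_at, gave signals between 47.6 and 239 and was not tested.

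Smpd1, the acid sphingomyelinase of the lysosome, returns sphingomyelin to ceramide. Its probe set 1448621_a_at gave 716, 694 and 700.3 on the MOSE-E arrays, 516, 708 and 763 on the MOSE-I arrays and 833, 860.4 and 1014 on the MOSE-L arrays. The MOSE-L signals lay over all others, by a small step: 902 ± 97.8 in MOSE-L and 703 ± 10.9 in MOSE-E cells, with a change of 0.33 (adjusted p = 0.198, 95% confidence interval -0.07 to 0.74). The dimmer 1447874_x_at, whose suffix marks probes that can bind other transcripts, had the opposite sign (-0.21, adjusted p = 0.447). Without MOSE-L replicate 3 these were 0.25 and -0.10. No Smpd1 change passed the test.

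Asah1, the acid ceramidase of the lysosome, splits ceramide into sphingosine and a fatty acid, and as with Sptlc2 1435937_at its 3 stages were set apart on every array. Its probe set gave 5109.8, 4964 and 4575 on the MOSE-E arrays, 4091, 4247 and 4131 on the MOSE-I arrays and 5904, 7365 and 8256 on the MOSE-L arrays, lowest in MOSE-I and highest in MOSE-L cells with no overlap. The mean was 7175 ± 1188 in MOSE-L and 4883 ± 276 in MOSE-E cells, 1.47-fold higher (log2 change 0.54 ± 0.18, adjusted p = 0.044), and 1.73-fold higher than the 4156 ± 81.0 of MOSE-I cells (log2 change 0.77 ± 0.18, adjusted p = 0.0127). Both passed the adjusted p and not the minimum change. The second kept an adjusted p of at most 0.05 without each array in turn (between 0.00495 and 0.0491). The first did not: it was 0.43 (adjusted p = 0.0886) without MOSE-L replicate 3 and lay between 0.0174 and 0.157 over the 9 arrays left out. The MOSE-I level had a change of -0.23 against MOSE-E cells (adjusted p = 0.408).

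**Figure D2:**
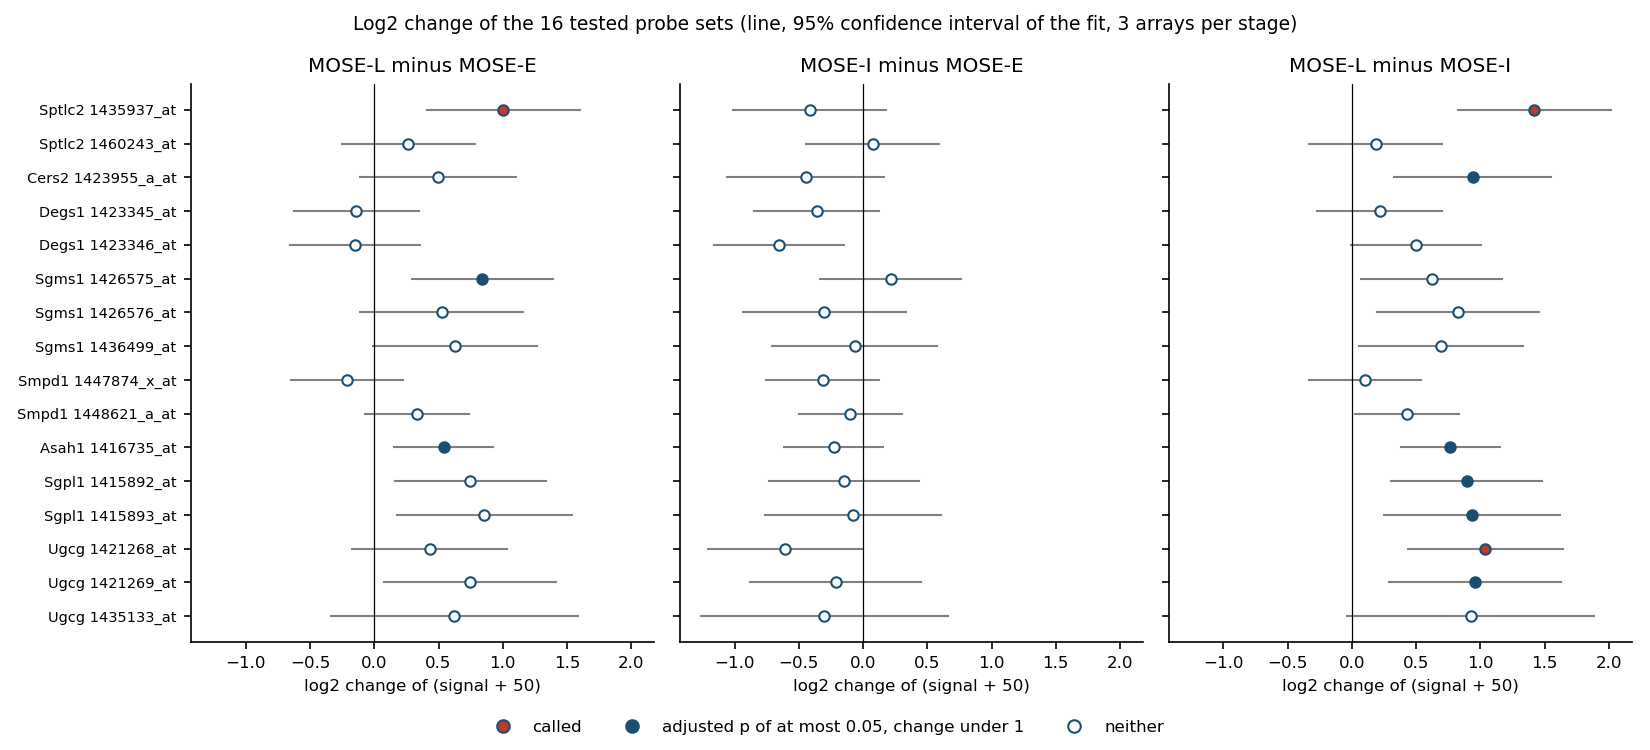
Log2 change of the 16 tested probe sets in the 3 comparisons (points, with 95% confidence intervals of the limma fit; 3 arrays per stage); red points were called, dark blue points passed the adjusted p alone. In the right panel all 16 points lie over 0 and 7 are coloured, and in the middle panel none is coloured.

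Sphingosine is phosphorylated by the kinases Sphk1, found mostly in the cytosol, and Sphk2, found largely in the nucleus and at inner membranes. Neither passed the filter, so neither was tested with the rest, and the values that follow come from the fit with no filter over 45037 probe sets. Sphk1 (1451596_a_at) gave 110.5, 112 and 155 on the MOSE-E arrays, 443, 216 and 179 on the MOSE-I arrays and 258, 371 and 331 on the MOSE-L arrays. All 6 later signals lay over the 3 MOSE-E signals. The change was 1.07 between MOSE-L and MOSE-E (2.54-fold, adjusted p = 0.057) and 0.83 for MOSE-I against MOSE-E (adjusted p = 0.193), of which neither passed. Its second probe set gave signals between 5.4 and 139. Sphk2 (1417431_a_at) gave 228, 159 and 242 on the MOSE-E arrays, 162, 164 and 226 on the MOSE-I arrays and 331, 232 and 395 on the MOSE-L arrays, with a change of 0.50 between MOSE-L and MOSE-E (adjusted p = 0.329) and groups that overlap. Its second probe set, 1426230_at, gave signals between 76.8 and 150.1.

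Sgpl1, the sphingosine 1-phosphate lyase, is the exit from the pathway. Its brighter probe set, 1415892_at, gave 699, 695 and 773 on the MOSE-E arrays, 589, 621 and 738 on the MOSE-I arrays and 879.8, 1069 and 2036 on the MOSE-L arrays. Each MOSE-L signal lay over all 6 others, with replicate 3 the highest. The mean was 1328 ± 620.4 in MOSE-L and 649 ± 78.5 in MOSE-I cells, 2.05-fold higher (log2 change 0.89 ± 0.27, adjusted p = 0.0321), and 0.55 without that array (adjusted p = 0.0631, between 0.0103 and 0.0855 over the 9 arrays left out). The second probe set, 1415893_at, had a change of 0.94 (adjusted p = 0.0457), and of 0.64 without MOSE-L replicate 3 (adjusted p = 0.16, between 0.013 and 0.16 over the 9 arrays left out). This second probe set passed the filter on MOSE-L arrays alone. Against MOSE-E cells the changes were 0.75 and 0.86, short of the adjusted p at 0.0597 and 0.0627. Without MOSE-L replicate 3 they were 0.40 and 0.56 (adjusted p = 0.136 and 0.203).

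Ugcg, the glucosylceramide synthase, opens the branch to the gangliosides. Its probe set 1421268_at gave 429.97, 344 and 345 on the MOSE-E arrays, 354, 147 and 217 on the MOSE-I arrays and 585, 466 and 509 on the MOSE-L arrays, and every MOSE-L signal lay over all others. The mean was 519.9 ± 60.5 in MOSE-L and 239 ± 105 in MOSE-I cells, 2.17-fold higher (log2 change 1.04 ± 0.27, adjusted p = 0.0212), and 1.05 without MOSE-L replicate 3 (adjusted p = 0.0491). This call was lost without MOSE-I replicate 2 (0.79, adjusted p = 0.0658), MOSE-I replicate 3 (1.01, 0.0651) or MOSE-L replicate 1 (0.96, 0.0377, under the minimum change), with adjusted p between 0.00949 and 0.0658 over the 9 arrays left out. It was also lost under quantile normalization (0.88) or median centring (0.86), with 200 added (0.74), or with only the arrays compared (adjusted p = 0.0507). At an adjusted p of 0.01 or by the methods' t-test after adjustment it was lost too. The other tested probe sets had changes of 0.96 (1421269_at, adjusted p = 0.0392, and 0.128 without MOSE-L replicate 3, the highest over the 9 arrays left out) and 0.93 (1435133_at, adjusted p = 0.128, resting on a signal of 1072 on MOSE-L replicate 3). Against MOSE-E cells the 3 probe sets had changes of 0.43, 0.74 and 0.62, and none passed. All 3 passed the filter on MOSE-L arrays alone, so their highest signals had to be there. Its remaining probe set, 1439863_at, gave signals between 2.12 and 65.7 and was not tested.

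Leaving out MOSE-L replicate 3 lowered most of these changes. Of the 16 probe sets 15 then passed the filter. Their median change was 0.43 between MOSE-L and MOSE-E and 0.58 between MOSE-L and MOSE-I cells. Of the 15 changes 12 and 13 were positive (49.3% and 48.5% of all 13467 probe sets tested then), and 0 and 4 passed the adjusted p. The matching shares of all probe sets that passed the adjusted p were not computed, so the 0 and 4 are no result about the members. The 4 were Asah1, Sptlc2 1435937_at, Ugcg 1421268_at and Cers2.

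**Figure D3:**
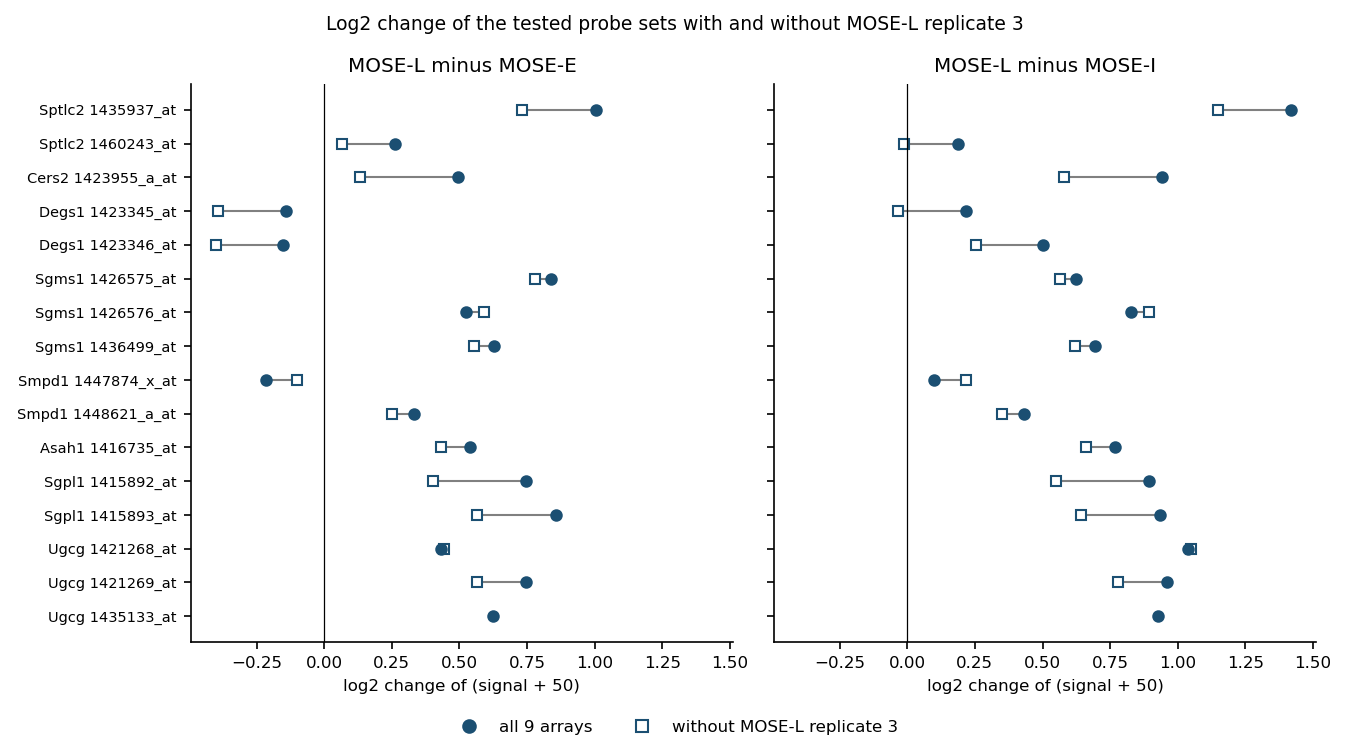
Log2 change of the tested probe sets between MOSE-L and MOSE-E (left) and MOSE-L and MOSE-I (right) with all 9 arrays (circles) and without MOSE-L replicate 3 (squares; Ugcg 1435133_at then stayed under the filter and has none). Without it the median moved to 0.43 on the left and 0.58 on the right.

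Calls were more frequent among the other genes of sphingolipid metabolism, although the 2 sets were counted in different units and not tested against each other. The members were counted by probe set, and the brightest probe sets of Sptlc2 (1460243_at) and Ugcg (1421269_at) were not called in any comparison. The other genes were counted by gene. A list of 62 of them by role was drawn up, of which 57 had a probe set naming them alone and 36 passed the filter, each represented by its probe set with the highest mean signal. The other 21 measured genes stayed under 500, among them the receptors S1pr1, S1pr3, S1pr4 and S1pr5, and 5 listed genes were not analysed here. Between MOSE-L and MOSE-E cells 15 of 36 were called higher and 1 lower, where 8.11% of all 7952 tested genes were called higher and 7.49% lower. Between MOSE-I and MOSE-E cells 2 were called higher and 1 lower (2.29% and 3.61% of all), and between MOSE-L and MOSE-I cells 10 were called higher and 1 lower (7.38% and 6.04%). Their median changes were 0.66, 0.14 and 0.52, against 0.03, 0.03 and -0.02 over all genes tested. These counts are a description too, since the list was drawn up with earlier results of these data known. Moreover, 5 of the 36 passed the filter on MOSE-L arrays alone and so had to be higher there (Sgms2, Asah2, Cerk, Spns2 and St8sia1). Of the other 31 genes, 10 were called higher and 1 lower between MOSE-L and MOSE-E, and 7 higher and 1 lower between MOSE-L and MOSE-I. With no filter, 12 of 57 were called higher and 0 lower for MOSE-L against MOSE-E and 9 higher and 0 lower for MOSE-L against MOSE-I. Without MOSE-L replicate 3 the calls numbered 10 between MOSE-L and MOSE-E and 6 between MOSE-L and MOSE-I cells, and without MOSE-E replicate 3 or MOSE-E replicate 2 the first count was 7 or 9. Of the 16 genes called for MOSE-L against MOSE-E, 5 kept the call without each array in turn: Sgms2, Smpdl3b, St8sia1, Gla and Arsa. Spns2 passed the filter through 1 array, MOSE-L replicate 2, and was not tested without it. It was called in each of the 8 fits in which it passed the filter. Of the 11 between MOSE-L and MOSE-I these were Sgms2, Smpdl3b, Asah2, St8sia1 and Galc, and of the 3 between MOSE-I and MOSE-E 0.

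**Figure D4:**
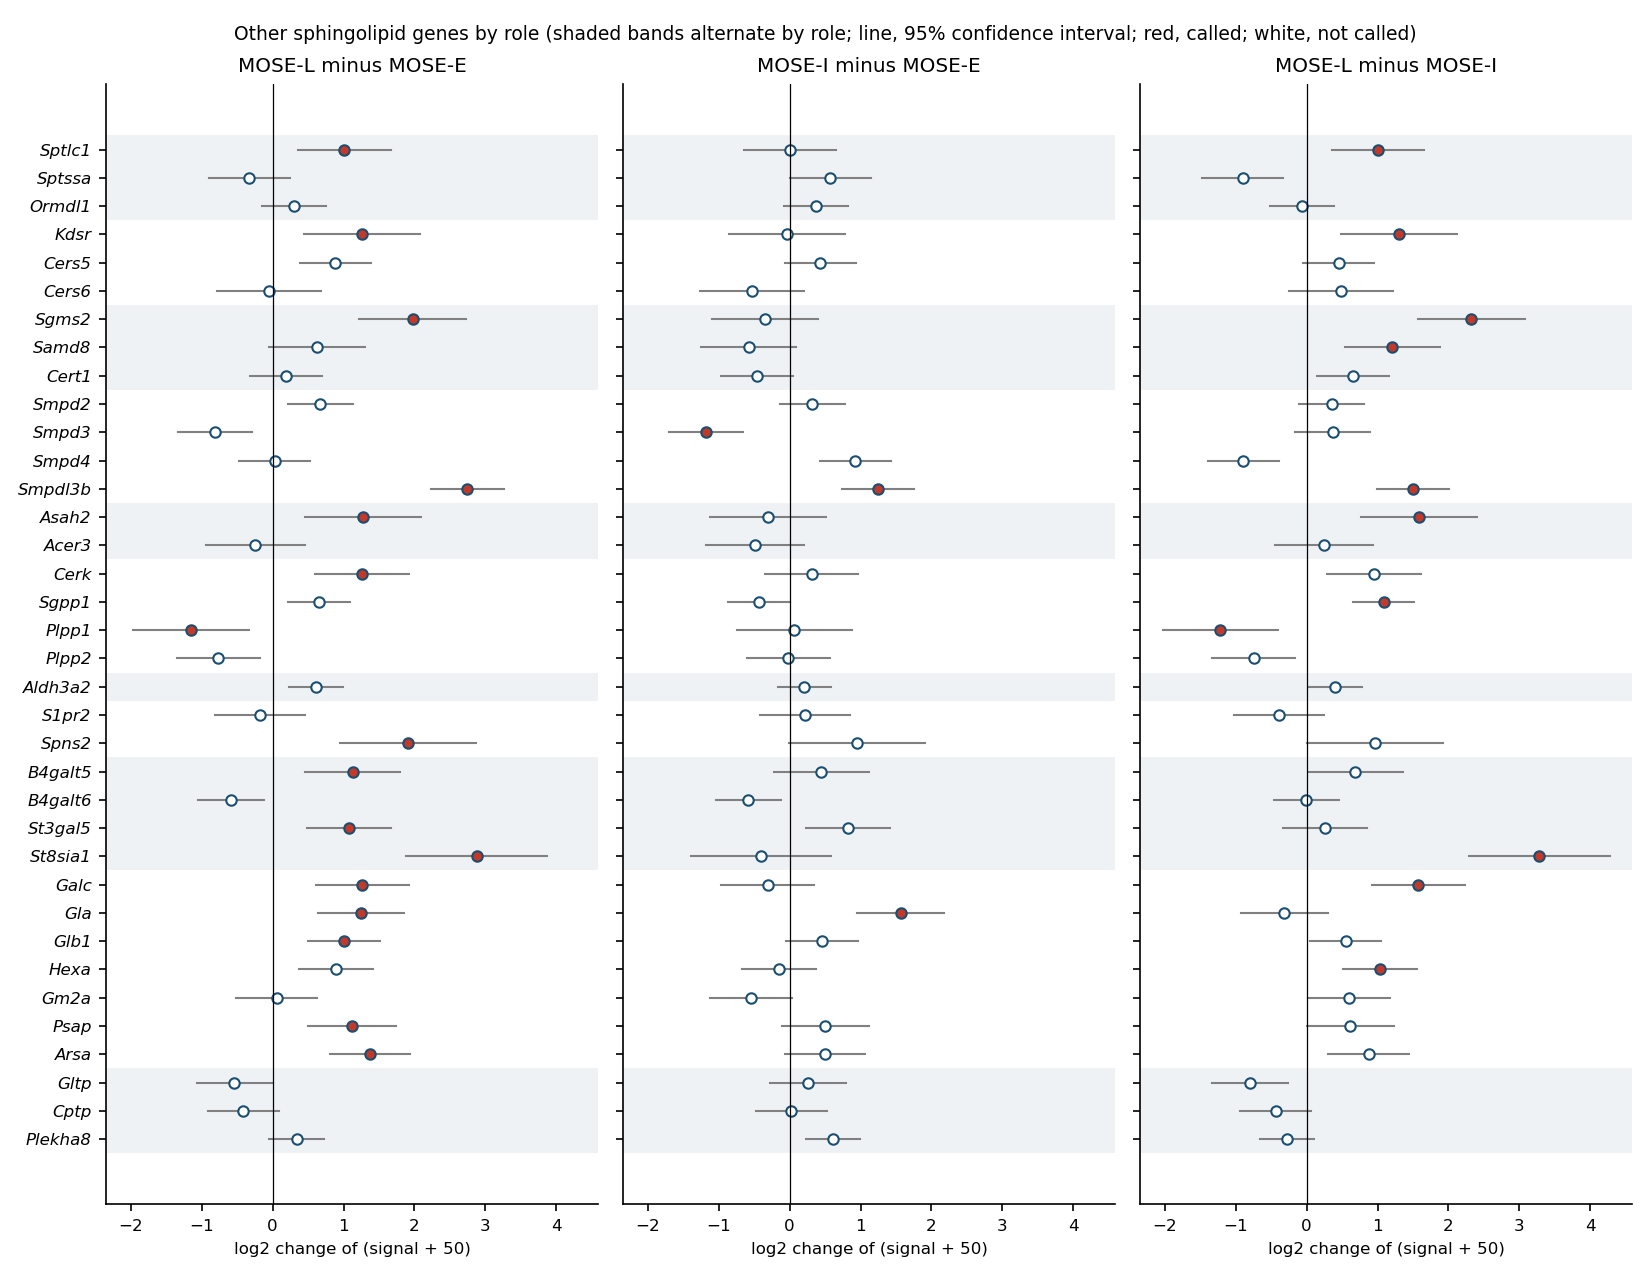
Log2 change of 36 other sphingolipid genes in the 3 comparisons, ordered by role from serine palmitoyltransferase (top) to lipid transfer (bottom), with 95% confidence intervals; red points were called. The red points on the left (15 to the right of 0 and 1 to the left) are spread over most of the roles, and the middle panel holds 3.

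In the synthesis of ceramide, 2 genes were called higher in MOSE-L than in either other stage. Sptlc1, the partner of Sptlc2 in serine palmitoyltransferase, had MOSE-L signals of 1748, 2109 and 4406 and MOSE-E signals of 1178, 1318 and 1206 (log2 change 1.01 ± 0.30, adjusted p = 0.0295). Kdsr, which reduces the first product of that enzyme, had MOSE-L signals of 978, 808 and 2262 and MOSE-E signals of 574, 606 and 310.3 (log2 change 1.26 ± 0.37, adjusted p = 0.0301). Both were highest on MOSE-L replicate 3, and neither was called without it (Sptlc1 0.62, Kdsr 0.83) or without MOSE-E replicate 2 or 3. Sptlc1 also lost its call without MOSE-E replicate 1. Against MOSE-I cells the changes were 1.00 for Sptlc1 (adjusted p = 0.031) and 1.30 for Kdsr (adjusted p = 0.0276), and both calls were lost without any 1 MOSE-I array or without MOSE-L replicate 3. A further Sptlc1 probe set had a change of 0.59 against MOSE-E (adjusted p = 0.122) and 0.84 against MOSE-I cells (adjusted p = 0.038). Sptssa, a small subunit that activates the enzyme, had the opposite sign in MOSE-L against MOSE-I cells (-0.90, adjusted p = 0.0289, under the minimum change). The synthase Cers5 was 1.92-fold higher in MOSE-L than MOSE-E cells (0.88, adjusted p = 0.0176), also under it.

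The sphingomyelin branch held some of the largest rises. Sgms2, the sphingomyelin synthase of the plasma membrane, gave 479, 403 and 309 on the MOSE-E arrays, 317, 321 and 255 on the MOSE-I arrays and 929.6, 1719 and 2962 on the MOSE-L arrays. Every MOSE-L signal lay over every other one, but Sgms2 passed the filter on MOSE-L arrays alone, so its highest signal had to be there. The mean was 1870.2 ± 1025 in MOSE-L and 397 ± 85.1 in MOSE-E cells, 4.71-fold higher (log2 change 1.97 ± 0.34, adjusted p = 0.00267). Samd8, which makes the related ceramide phosphoethanolamine, was called higher in MOSE-L than in MOSE-I cells (1.21, adjusted p = 0.0183), a call lost without MOSE-L replicate 3 (0.78) or MOSE-I replicate 3 (adjusted p = 0.0533). The ceramide carrier Cert1 had a change of 0.65 there (adjusted p = 0.0572).

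Among the sphingomyelinases, 2 genes moved in opposite directions. Smpdl3b, a phosphodiesterase at the cell surface related to acid sphingomyelinase, gave 146, 175 and 146 on the MOSE-E arrays, 305, 492 and 554 on the MOSE-I arrays and 1291, 1552 and 1172 on the MOSE-L arrays. The 3 stages did not overlap, and Smpdl3b was the gene of the list called in all 3 comparisons: 2.75 between MOSE-L and MOSE-E (8.59-fold, adjusted p = 3.62e-05), 1.25 for MOSE-I against MOSE-E (adjusted p = 0.0119) and 1.50 between MOSE-L and MOSE-I cells (adjusted p = 0.00231). Smpd3, the neutral sphingomyelinase of the Golgi and plasma membrane, gave 1748, 2537 and 2899 on the MOSE-E arrays, 1073, 1175 and 805 on the MOSE-I arrays and 1179, 1639.6 and 1160.1 on the MOSE-L arrays. Its mean fell to 1017 ± 191 in MOSE-I cells, against 2395 ± 589 in MOSE-E cells, a log2 change of -1.18 (adjusted p = 0.0161), and all 3 of its tested probe sets were called lower there. The changes of Smpdl3b and Smpd3 between MOSE-I and MOSE-E lost their calls without MOSE-E replicate 2, MOSE-E replicate 3 or MOSE-I replicate 3 (adjusted p between 0.053 and 0.0698 for Smpdl3b and between 0.0858 and 0.0921 for Smpd3). Smpd2 had a change of 0.67 between MOSE-L and MOSE-E cells (adjusted p = 0.0357, under the minimum change).

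Around ceramide and sphingosine 1-phosphate, 4 genes were called higher in MOSE-L than in MOSE-E or MOSE-I cells. Asah2, Cerk and Spns2 passed the filter on MOSE-L arrays alone, so their highest signals had to be there. Against MOSE-E cells 1 of 2 tested ceramidases, 1 of 4 kinases and phosphatases and 1 of 2 genes of receptors and export were called higher (8.11% of all tested genes). Against MOSE-I cells these were 1 of 2, 1 of 4 and 0 of 2 (7.38%). The neutral ceramidase Asah2 was called higher in MOSE-L than in MOSE-I (1.59, adjusted p = 0.0138) and in MOSE-E cells (1.28, adjusted p = 0.029), with MOSE-L signals of 404, 551 and 1245 and MOSE-E signals of 172, 273 and 297; the second call was lost without any 1 MOSE-E array or without MOSE-L replicate 3 (0.84, adjusted p = 0.0887). The ceramide kinase Cerk was called higher in MOSE-L than MOSE-E cells (1.26, adjusted p = 0.0124), except without MOSE-E replicate 3 (0.97, 0.0527). Sgpp1, the sphingosine 1-phosphate phosphatase, was called higher in MOSE-L than in MOSE-I cells (1.09, adjusted p = 0.0048), except without MOSE-L replicate 3 (0.90). Spns2, which exports sphingosine 1-phosphate from the cell, had MOSE-L signals of 475, 688 and 288 and MOSE-E signals of 99.3, 133 and 40.1 (log2 change 1.91 ± 0.44, adjusted p = 0.0103), and its lowest MOSE-L signal was on replicate 3.

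Plpp1, a lipid phosphatase that also removes phosphate from sphingosine 1-phosphate, was the gene called lower in MOSE-L cells. It had MOSE-L signals of 2403, 3984 and 2871 and MOSE-E signals of 3806, 7644 and 10585, which overlap, and MOSE-I signals of 5056, 9993 and 7037, which do not overlap with those of MOSE-L (-1.15, adjusted p = 0.0415, and -1.22, adjusted p = 0.0344). Against MOSE-E cells the call hung on 5 arrays (replicates 2 and 3 of MOSE-E, 3 of MOSE-I, and 1 and 3 of MOSE-L) and was lost without any 1 of them, and against MOSE-I cells it hung on 4 (replicates 2 and 3 of MOSE-I and 1 and 3 of MOSE-L). Its second tested probe set was called lower in both (-1.24 and -1.27). Plpp2 had a change of -0.76 between MOSE-L and MOSE-E cells (adjusted p = 0.0559), Aldh3a2, which clears the aldehyde left by Sgpl1, one of 0.61 (adjusted p = 0.0256), the receptor S1pr2 one of -0.18 (adjusted p = 0.676), and the ceramidase Acer3 one of -0.24 (adjusted p = 0.597).

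After Ugcg, 3 of the 4 tested genes of glycosphingolipid synthesis were called higher in MOSE-L than MOSE-E cells (8.11% of all tested genes). St8sia1, which adds the second sialic acid of the b-series gangliosides, gave 27.3, 43.2 and 55.5 on the MOSE-E arrays, 32.6, 7.02 and 19.9 on the MOSE-I arrays and 690.3, 753 and 457 on the MOSE-L arrays. It was near background before the MOSE-L stage, and its change of 2.88 (adjusted p = 0.0016) therefore depends on the added 50. It passed the filter on MOSE-L arrays alone, so its highest signal had to be there. St3gal5, which adds the first sialic acid to lactosylceramide, had a change of 1.07 (adjusted p = 0.0154), a call lost without MOSE-E replicate 2 or 3 or MOSE-L replicate 1, and its second probe set one of 0.44 (adjusted p = 0.0988). B4galt5, which makes lactosylceramide, had a change of 1.13 (adjusted p = 0.0209), a call lost without MOSE-E replicate 2 or 3 or MOSE-L replicate 3. Its relative B4galt6 had the opposite sign (-0.59, adjusted p = 0.0597).

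Lysosomal breakdown was the role with the most calls and also with the most tested genes. Of its 7 tested genes 5 were called higher in MOSE-L than MOSE-E cells, where 8.11% of all tested genes were. Glycosphingolipid synthesis had 3 of 4, among them St8sia1, which passed the filter on MOSE-L arrays alone, and the roles were not ranked by share. Of the 5, Arsa and Gla kept the call without each array in turn. Arsa, the sulfatidase, had MOSE-L signals of 2584, 2579 and 4179.8 and MOSE-E signals of 1097, 1231 and 1096 (2.73-fold, log2 change 1.37 ± 0.26, adjusted p = 0.00404). Gla, the alpha-galactosidase, was called higher in both later stages: it gave 797, 439.8 and 458 on the MOSE-E arrays, 1624, 1535 and 2004 on the MOSE-I arrays and 928, 1642 and 1667 on the MOSE-L arrays, a change of 1.25 between MOSE-L and MOSE-E (adjusted p = 0.00887) and 1.56 for MOSE-I against MOSE-E (adjusted p = 0.00986, between 0.0563 and 0.0643 without MOSE-E replicate 2, MOSE-E replicate 3 or MOSE-I replicate 3). Galc, the galactosylceramidase, had MOSE-L signals of 742, 1276 and 1511 and MOSE-E signals of 537, 359.9 and 440.1 (1.27, adjusted p = 0.012, and 0.0529 without MOSE-E replicate 2). Psap, the precursor of the saposins that present the lipids to these enzymes, had a change of 1.12 (adjusted p = 0.0151) and the beta-galactosidase Glb1 one of 1.00 (adjusted p = 0.0106). Both lost the call without MOSE-L replicate 3 (0.84 and 0.88) or MOSE-E replicate 3, and Glb1 also without MOSE-E replicate 1. The hexosaminidase subunit Hexa was called higher in MOSE-L than in MOSE-I cells (1.03, adjusted p = 0.0128), except without MOSE-L replicate 3 (0.88) or MOSE-I replicate 1 (0.80). The activator Gm2a had a change of 0.06 (adjusted p = 0.895) and the carrier Gltp one of -0.54 (adjusted p = 0.122), both for MOSE-L against MOSE-E.

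**Figure D5:**
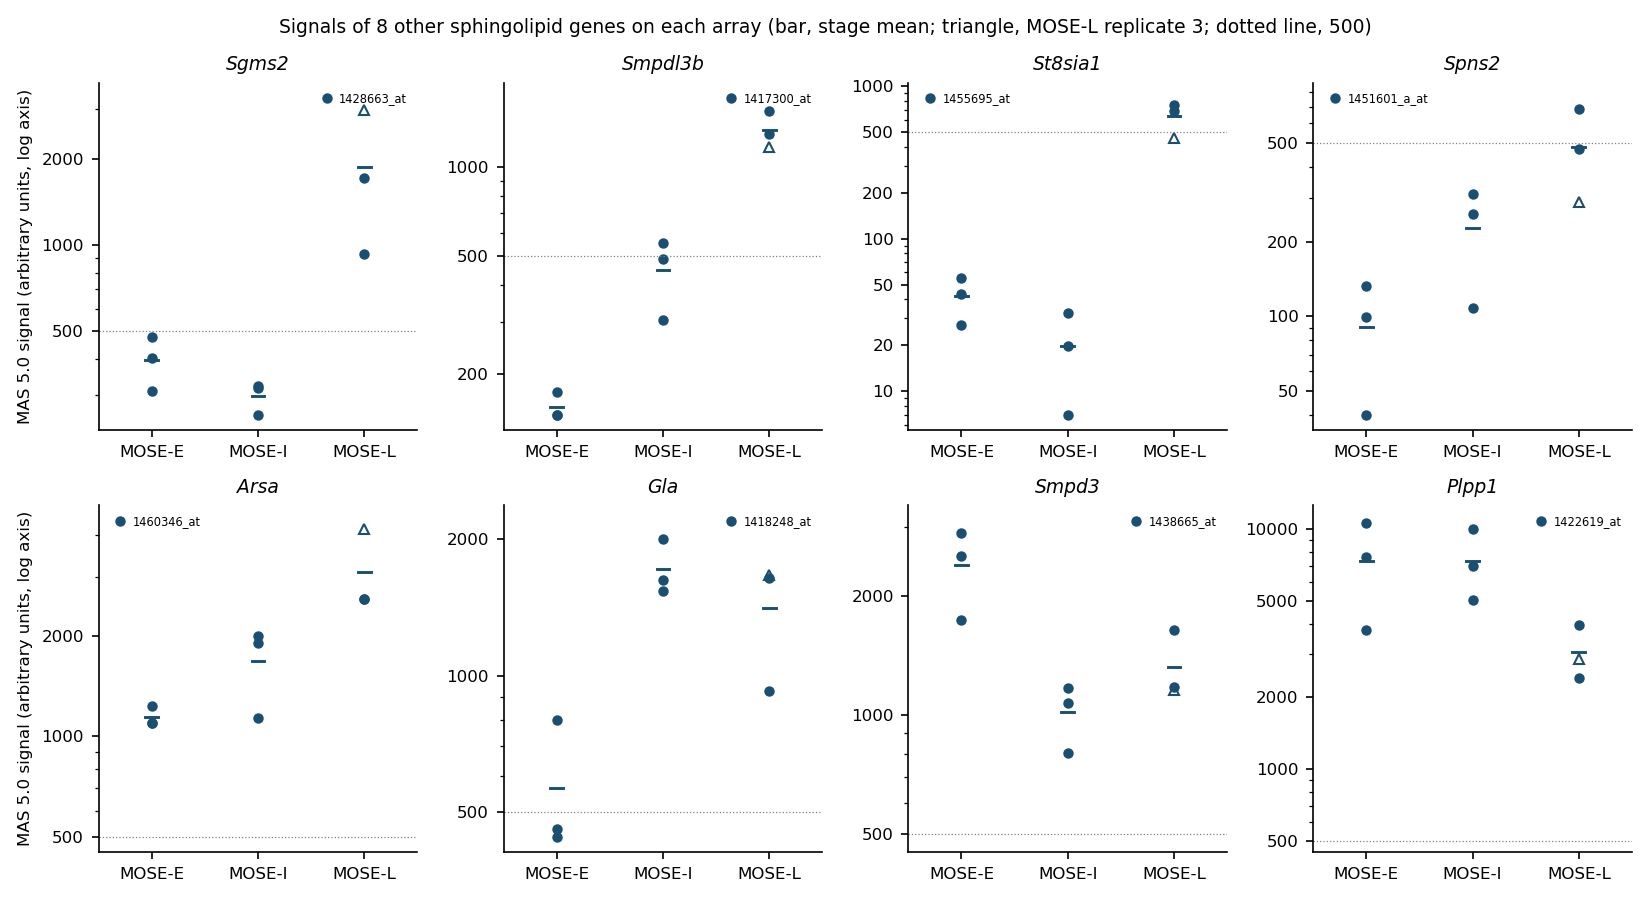
Signals of 8 of these genes on the 9 arrays by stage (log axis, arbitrary units; bars are stage means, open triangles MOSE-L replicate 3, the dotted line 500). Smpdl3b climbs over both steps, Sgms2 and St8sia1 at the second, Gla and Smpd3 change at the first, and the triangle is the lowest MOSE-L point for Smpdl3b, St8sia1, Spns2 and Smpd3.

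The genes most like the members over the 9 arrays were sought for the 3 tested members whose brightest probe set had the widest range of stage means among those past the filter, by Pearson correlation of the log2 signals, given as a description of arrays that share stage and scaling. For Ugcg (1421269_at) they were the RNA demethylase Alkbh5 (r = 0.974) and the histone methyltransferase Kmt5b (0.954). For Cers2 they were the transcription factor Nfx1 (0.987) and Tmtc2 (0.986). For Sgpl1 (1415892_at) they were Stt3a, a subunit of the oligosaccharyltransferase (0.986), and Serinc1 (0.986), which takes part in bringing serine into sphingolipids and which had MOSE-L signals of 4871, 5668 and 10439 and MOSE-E signals of 3582, 3238 and 3495. Each of the 6 had its highest signal on MOSE-L replicate 3.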

How the data were processed

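RNA of 9 MOSE cultures was hybridised to mouse whole-genome oligonucleotide arrays, with 1 array per culture. The authors computed MAS 5.0 signals, brought every array to the same trimmed mean (500) and deposited them as linear intensity values, 1 per probe set. Depth does not apply to arrays, and their number, 3 per stage, limits the precision. After 64 control probe sets were left out, 50 was added to each signal, the sums were log2-transformed, and probe sets that passed 500 on some array were kept. Stage means were fitted over the 9 arrays with limma 3.58.1 (lmFit and eBayes with an intensity trend, R 4.3.3), and p-values were adjusted by Benjamini-Hochberg over the 13845 probe sets kept. The fit was tested on simulated data. Of the 45101 probe sets 34958 name 1 gene, 932 several and 9211 none, and symbols come from the platform annotation with 34754 matched to a current gene table. A pathway gene was represented by its kept probe set with the highest mean signal. The members and lists were chosen with earlier results of these data known. All members were named, and of the other pathway genes each one called in at least 1 comparison and at most 1 uncalled gene per role, that with the highest mean signal. The alternatives were the added value, the scaling, the filter, the thresholds, the trend, the arrays in the fit, a replicate block, the methods' t-test and each array left out in turn. Promoter windows were read from RefSeq on GRCm38.p6 and searched on both strands. Protein sequences were not used here.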

Additional observations from a re-analysis of the deposited data

How the results depend on the processing

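The calls of the enzymes were few and close to the limits. The members called between MOSE-L and MOSE-E numbered 1, against 0 with 200 added in place of 50, with each array centred on its median, at an adjusted p of 0.01, and by the methods' t-test with or without adjustment, 3 with no minimum change, and 0 to 2 with 1 array left out. Between MOSE-L and MOSE-I they numbered 2, against 1 with 200 added, median centring, a filter at 1000, only the arrays compared, or an adjusted p of 0.01, 4 with 1 added, 7 with no minimum change, 0 by the adjusted t-test, and 1 to 5 with 1 array left out. The other pathway genes called between MOSE-L and MOSE-E numbered 16, against 10 with 200 added, 5 at an adjusted p of 0.01, 9 by the t-test, 1 by the adjusted t-test and 7 to 17 with 1 array left out. Between MOSE-I and MOSE-E the 3 became 1 at 0.01, 5 with no minimum change, 0 by the adjusted t-test and 0 to 5, and between MOSE-L and MOSE-I the 11 became 5, the adjusted t-test gave 0, and leaving out 1 array gave 6 to 11. Over all probe sets the 2077 calls between MOSE-L and MOSE-E became 1304 at 0.01, 3667 with no minimum change and 414 by the adjusted t-test. The 793 between MOSE-I and MOSE-E became 211, 1350 and 15, and 127 to 1233 with 1 array left out, and the 1925 between MOSE-L and MOSE-I became 868, 3761 and 10, and 1156 to 2770. The cause of these differences beyond the fewer arrays and shifted limits was not tested.

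Median centring gave 801 probe sets higher and 1310 lower between MOSE-L and MOSE-I, where the deposited scaling gave 1115 and 810, and 459 and 437 between MOSE-I and MOSE-E, where it gave 273 and 520. It took 0.18 off each change between MOSE-L and MOSE-I, and 0.14 was added between MOSE-I and MOSE-E.

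No call of a member reversed in the alternatives run. The uncalled changes that did were, with quantile normalization, Sgpl1 1415893_at between MOSE-I and MOSE-E (0.0455) and Smpd1 1447874_x_at between MOSE-L and MOSE-I (-0.0342), and with median centring Sgpl1 1415893_at (0.0583), Sgms1 1436499_at (0.0697) and Smpd1 1448621_a_at (0.038) between MOSE-I and MOSE-E and Smpd1 1447874_x_at between MOSE-L and MOSE-I (-0.0749). With 1 array left out, changes between MOSE-I and MOSE-E ran from -0.23 to 0.10 for Sgpl1 1415893_at, -0.0081 to 0.41 for Sgms1 1426575_at, -0.41 to 0.27 for Sgms1 1436499_at, -0.20 to 0.0591 for Smpd1 1448621_a_at, -0.52 to 0.0485 for Ugcg 1421269_at and -0.0278 to 0.25 for Sptlc2 1460243_at. Sptlc2 1460243_at ran from -0.0121 to 0.37 and Degs1 1423345_at from -0.0341 to 0.39 between MOSE-L and MOSE-I, and between MOSE-L and MOSE-E Degs1 1423345_at ran from -0.39 to 0.0277 and Degs1 1423346_at from -0.40 to 0.0328.

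The methods name no pairing of cultures across stages. The correlations of same-numbered deviations were 0.41, 0.26 and 0.02 between MOSE-L and MOSE-E, 0.06, 0.05 and -0.02 between MOSE-I and MOSE-E, and -0.05, -0.11 and -0.03 between MOSE-L and MOSE-I. Arrays of different number were not compared, so these values cannot decide whether the replicate number pairs the cultures. With the number as a block, the members called stayed at 1, 0 and 2 and all calls were 2072, 875 and 1996, and 4 adjusted p of the members crossed 0.05, none with a change of 1 or more. For MOSE-L against MOSE-E these were Asah1 (0.0548 with the block, 0.044 without) and Sgpl1 1415892_at (0.0385, 0.0597), and for MOSE-L against MOSE-I Ugcg 1421269_at (0.0532, 0.0392) and Sgms1 1426576_at (0.0404, 0.0536).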
